A study of Gossypium hirsutum and Gossypium barbadense with 16 samples.

Results

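The genes described here are 52 orthologs whose transcript level stood higher in fiber cells than in epidermal cells of the Pima cotton line 3-79 at 2 days post anthesis (DPA), while the same genes stood level between these cell types in the Upland line TM1. They were drawn from 52514 orthologs shared by both species, of which 42627 were above 0 in at least 1 library and were tested. Expression is given in FPKM, the fragments assigned to a gene scaled by its transcript length and by the mapped reads of the library. The rule asked that the lowest Gb3-79 fiber library exceed 5 FPKM and reach at least 2 times the highest Gb3-79 epidermal library. It also asked for a GhTM-1 epidermal mean above 1 FPKM and a GhTM-1 ratio of mean fiber to mean epidermis between 0.8 and 1.25. The genes were thus selected on the FPKM of the 8 wild-type libraries of 2 DPA, so every value from these libraries below is a description without a test.

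A cotton fiber is a single cell of the ovule epidermis that stops dividing, bulges from the surface around anthesis and then elongates into a seed hair. Initiation, when a share of the epidermal cells commits to this fate, is followed by fast elongation and later by deposition of a cellulose-rich wall. Upland cotton (*Gossypium hirsutum*) carries long lint and short fuzz fibers, Pima cotton (*G. barbadense*) carries fine long lint, and the fiberless mutant MD17 has naked seed. Both species are allotetraploids with an A and a D subgenome, so most genes exist as a pair of homoeologs that are written with A or D and the chromosome number in the gene ID.

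Wild-type GhTM-1 (TM1, *G. hirsutum*), wild-type Gb3-79 (3-79, *G. barbadense*) and the naturally occurring fiberless mutant GhMD17 (MD17, *G. hirsutum* background) were grown in a greenhouse, and cells were cut from fixed ovules by laser-capture microdissection. At 0 DPA the outermost cell layer was taken from all 3 lines, which in the wild types includes the fiber initials. At 2 DPA protruding fibers were cut off wild-type ovules and the epidermis beneath them was taken in a second cut, whereas the mutant gave epidermis alone. This made 8 groups of 2 biological replicates, 16 libraries in all. A higher level in such a cut can mean more cells that express a gene or more RNA per cell, and these cannot be told apart. Gb3-79 reads were mapped to a *G. barbadense* genome and those of the other lines to a *G. hirsutum* genome, so species, line and reference cannot be told apart in any comparison of Gb3-79 with the others. The files give no counts, so the depth behind each value is unknown here. Replicates of a group correlated across genes at r = 0.945 to 0.961 on the log2 scale, and between 25689 and 29504 orthologs per library exceeded 1 FPKM. The 4 fiber libraries held the fewest, 25689 to 25759.

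No file used here pairs the gene IDs with names or functions, and no gene is given a role below for that reason. The labelled cell types could not be checked against named markers either. In the supplementary text used here, IDs came with a family name for 20 auxin response factor (ARF) and 20 MYB transcription factor genes, families that act in auxin signalling and in the epidermal cell fate that precedes fiber growth. The study chose genes of both lists on these samples, so the lists are no independent evidence. Its MYB tree also showed genes already known to rise in fibers that the study did not detect. Of the 40 listed genes 0 are among the 52. The lowest Gb3-79 fiber library exceeded 5 FPKM for 7 ARF and 13 MYB genes. Since the rule took only 52 of 13140 orthologs above that limit, their absence says little about either family. Epidermis of Gb3-79 and GhMD17 at 0 DPA was compared with limma by the limits used here. There 1 ARF gene was called higher and 11 lower, and 6 MYB genes were called higher and 7 lower. Of all orthologs tested 6.3% and 5.37% were called, and of the 13140 orthologs 16% and 6.91%.

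The rule narrowed quickly. The lowest Gb3-79 fiber library exceeded 5 FPKM for 13140 orthologs, and for 546 of these it was at least 2 times the highest epidermal library. GhTM-1 epidermis averaged above 1 FPKM for 514 of the 546. The GhTM-1 ratio was above the 0.8 to 1.25 window for 433, under it for 29 and inside it for the 52. Exchanging the lines gave 5 genes, from 126 orthologs that met the same fold in GhTM-1. A rise of at least 2 times by the same limits in both lines was met by 49 orthologs. Without the first Gb3-79 epidermal library of 2 DPA the rule would have taken 232 genes. Without any 1 of the other 3 Gb3-79 libraries of that stage it would have taken 126 to 134. Leaving out a Gb3-79 library can only loosen the rule, which reads the lowest and highest of them, so all 52 genes stayed in these runs. Without 1 GhTM-1 library of 2 DPA it took 59 to 74 genes, and 35 to 38 of the 52 stayed.

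The 52 genes ranged widely in level. Their mean in Gb3-79 fiber ran from 5.11 to 1624 FPKM with a median of 11.8 FPKM, and 7 genes averaged above 100 FPKM, 25 above 10 and up to 100, and 20 at 10 or less. The median over the genes was 4.06 FPKM in Gb3-79 epidermis at 2 DPA and 5.49 FPKM at 0 DPA. In GhTM-1 it was 4.72 FPKM in epidermis at 0 DPA, 6.64 FPKM in epidermis at 2 DPA and 6.80 FPKM in fiber. GhMD17 epidermis had medians of 4.21 FPKM at 0 DPA and 4.40 FPKM at 2 DPA. Gb3-79 fiber stood apart from 7 groups whose medians lay close together. The rule builds in a raised Gb3-79 fiber above its epidermis and level cell types in GhTM-1, so this pattern describes the selection.

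**Figure D1:**
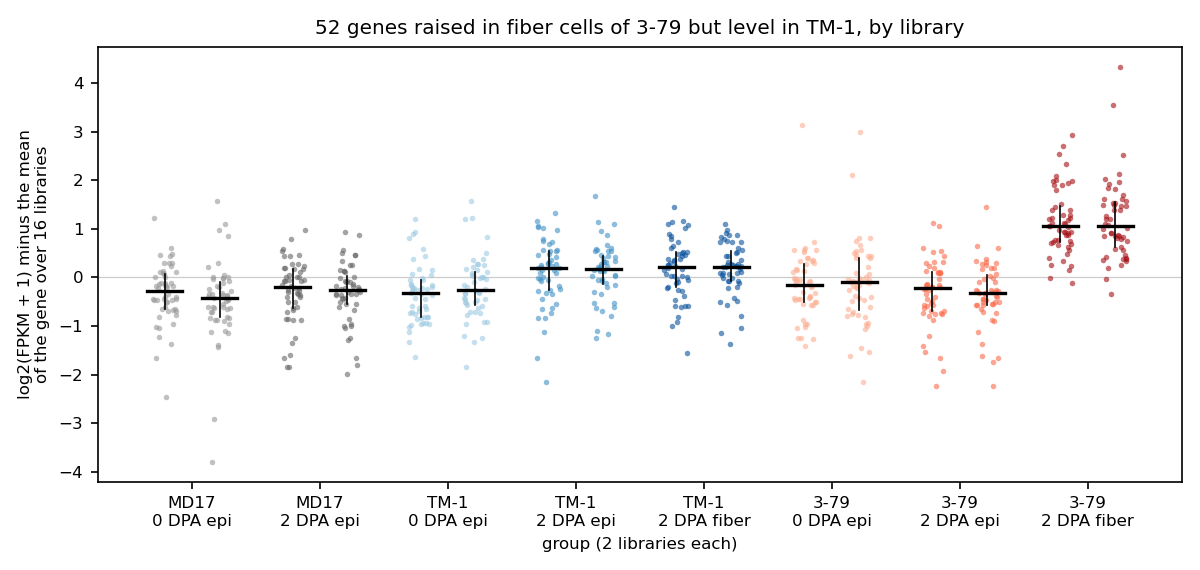
Level of each of the 52 genes in each of the 16 libraries, as log2(FPKM + 1) minus that gene's mean over all libraries; points are genes, thick bars are medians and thin lines span the quartiles. The medians of both Gb3-79 fiber libraries lie at 1.06, and those of the other 14 libraries lie between -0.43 and 0.22.

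Gb3-79 fiber had the highest mean of the 8 groups for 45 of the 52 genes. For 35 genes both fiber libraries exceeded every other library of the series, and for 46 they exceeded both mutant libraries of 2 DPA. The rule chose genes high in these fiber libraries, which favours such counts, and their shares over all orthologs were not computed. The mean in fiber was 2.09 to 7.52 times that in epidermis, with a median of 2.94 over the 51 genes for which a ratio exists. The lowest fiber library was 2.01 to 4.60 times the highest epidermal library, median 2.37. In GhTM-1 the ratio of means ran from 0.804 to 1.24 with a median of 1.02, and the fiber and epidermal libraries overlapped for 41 genes. Fiber lay wholly above epidermis for 6 genes and below for 5, beside 12.9% and 30.7% of all orthologs and 28.3% and 26.1% of the 13140. In the limma fit, 45 of the 52 were past the call limits for Gb3-79 fiber against epidermis, where 3.27% of all orthologs tested and 10.3% of the 13140 orthologs were called higher. In GhTM-1 0 were past the limits, where 1.77% of all orthologs and 5.31% of the 13140 were called higher and 5.73% and 8.05% lower. At an unadjusted P under 0.05 the GhTM-1 count was also 0. The rule fixed these counts of calls.

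A level mean in GhTM-1 did not always stand for level replicates. The replicates of a group differed by more than 2-fold for 8 genes in GhTM-1 epidermis and 4 in GhTM-1 fiber, and for 6 and 2 genes in the same cells of Gb3-79. Gohir.A01G185401 is such a gene, with 2.15 and 43.8 FPKM in the GhTM-1 epidermal libraries and 27.1 and 15.2 FPKM in fiber. Its Gb3-79 libraries gave 3.77 and 16.3 FPKM in epidermis and 54.4 and 48.6 FPKM in fiber, so that the lines overlapped in epidermis and not in fiber.

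The largest separation belonged to Gohir.A05G149550, which was listed at 0 in both Gb3-79 epidermal libraries of 2 DPA and at 19.8 and 63.4 FPKM in fiber. No ratio was formed because the files hold no counts from which a floor could be set. In GhTM-1 it stood at 0 and 2.02 FPKM in epidermis and at 2.26 and 0.230 FPKM in fiber. It was low in every library of the other 7 groups, up to 5.81 FPKM in a mutant library of 0 DPA, and the fiber replicates of Gb3-79 themselves differed by more than 2-fold. Next came Gohir.A09G015000, with 1.34 and 1.65 FPKM in Gb3-79 epidermis and 7.60 and 14.9 FPKM in fiber, the lowest fiber library being 4.60 times the highest epidermal one. Its GhTM-1 libraries, 3.20 and 2.17 FPKM in epidermis and 1.24 and 3.67 FPKM in fiber, overlapped.

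The most abundant gene was Gohir.A02G081503. Gb3-79 fiber had 1821 and 1428 FPKM against 603 and 561 FPKM in the epidermis beneath it, a ratio of means of 2.79. GhTM-1 had 635 and 494 FPKM in epidermis and 525 and 595 FPKM in fiber, level within the spread of its replicates. The mutant without fibers also had a high level of this transcript, 1575 and 1541 FPKM in epidermis at 2 DPA, inside the range of Gb3-79 fiber. At 0 DPA the mutant had 1101 and 1452 FPKM, GhTM-1 692 and 799 FPKM and Gb3-79 391 and 380 FPKM. A high level of this gene was therefore shared by Gb3-79 fiber and the fiberless epidermis.

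The second in level, Gohir.A05G403200, had 903 and 694 FPKM in Gb3-79 fiber and 254 and 203 FPKM in Gb3-79 epidermis at 2 DPA. GhTM-1 gave 99.3 and 102 FPKM in epidermis and 117 and 125 FPKM in fiber. All 4 Gb3-79 libraries of 2 DPA lay above all 4 of GhTM-1. The mutant had 215 and 195 FPKM at 2 DPA, above all 4 GhTM-1 libraries and overlapping Gb3-79 epidermis.

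**Figure D2:**
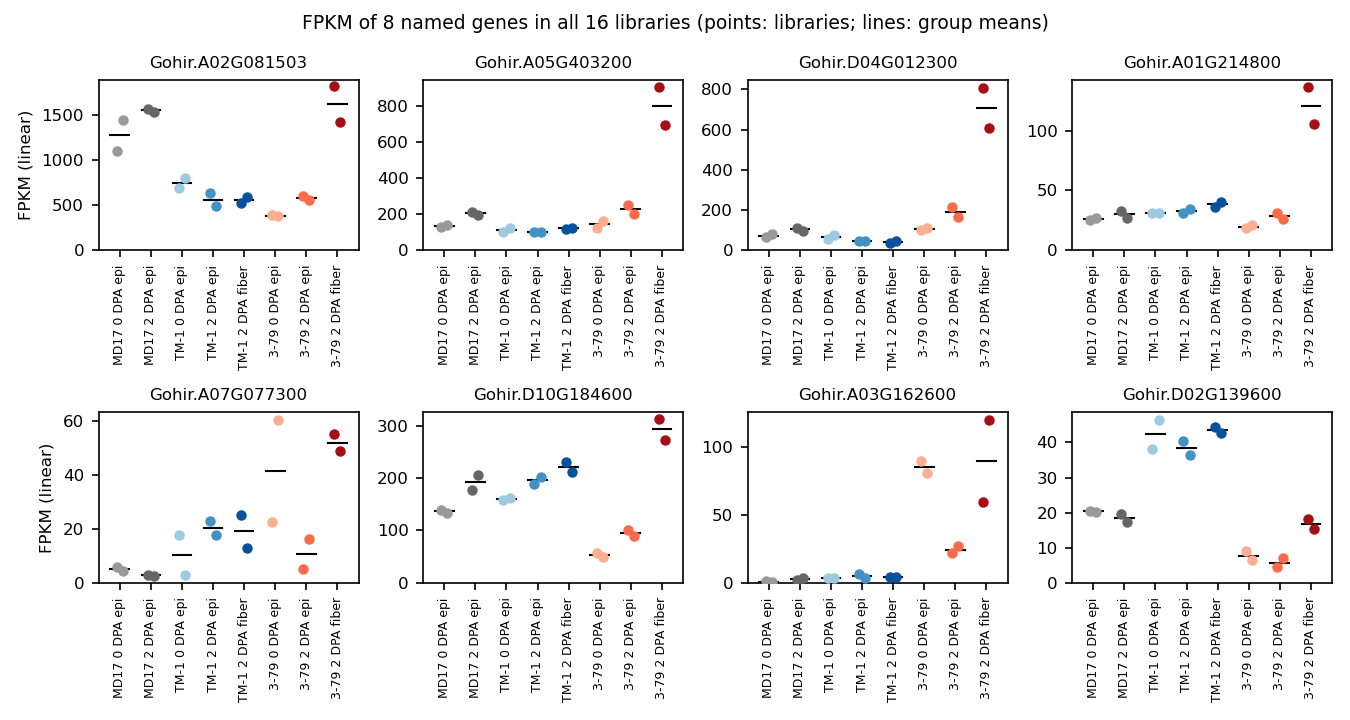
FPKM of 8 of the named genes in the 16 libraries on linear axes that start at 0; points are libraries and lines are the means of the 2 replicates. Gb3-79 fiber (dark red) is the highest group in 7 panels, while in Gohir.D02G139600 the GhTM-1 groups are highest, and in Gohir.A02G081503 the GhMD17 libraries of 2 DPA lie within the Gb3-79 fiber range.

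The ratio can differ between lines through either cell type, and this was described by setting the levels of Gb3-79 against those of GhTM-1 in each cell type, with a 1.5-fold limit for higher and lower. Over the 52 genes the Gb3-79 level was 1.82 times that of GhTM-1 in fiber at the median, and 0.592 times in epidermis. The medians over the 13140 orthologs above the same fiber minimum, which were not matched on level, were 1.09 in fiber and 1.07 in epidermis. The rule itself places the fiber ratio of each gene above its epidermal ratio, and the genes varied in which cell type held the line difference. In 32 genes fiber was higher in Gb3-79, made up of 9 with higher epidermis, 11 with a similar epidermis and 12 with lower epidermis. In 16 genes fiber was similar and the epidermal level was lower in Gb3-79. Another 2 genes were similar in both cell types and 2 were lower in both.

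**Figure D3:**
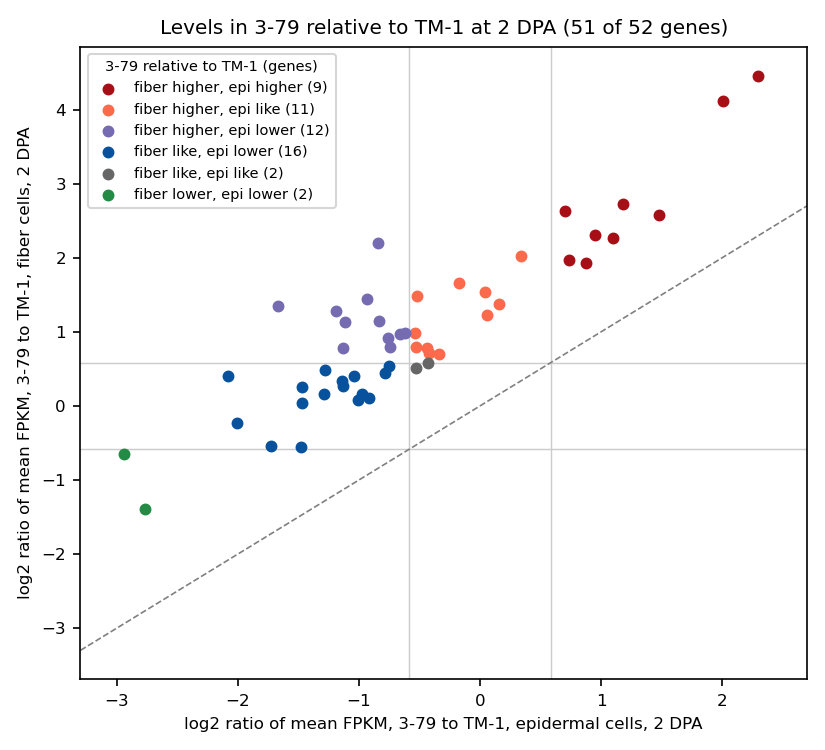
Log2 ratio of mean FPKM in Gb3-79 to that in GhTM-1 in fiber cells (vertical axis) against the same ratio in epidermal cells (horizontal axis) at 2 DPA, for the 51 genes above 0 in Gb3-79 epidermis. Grey lines mark the 1.5-fold limit and the dashed line equal ratios, above which the rule places every gene; 16 genes are similar in fiber and lower in epidermis, and 9 are higher in both ("like" in the legend means within the limit).

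The 9 genes higher in both cell types had a median of 89.2 FPKM in Gb3-79 fiber and 24.3 FPKM in its epidermis against 4.08 and 4.94 FPKM in GhTM-1. Gohir.D04G012300 had 808 and 606 FPKM in Gb3-79 fiber and 218 and 165 FPKM in epidermis. Its GhTM-1 libraries had 35.0 and 46.5 FPKM in fiber and 47.2 and 48.1 FPKM in epidermis, so the line means differed 17.3-fold in fiber and 4.02-fold in epidermis. A line difference across the whole surface came with a further rise in Gb3-79 fiber.

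Among the 11 genes that were higher in fiber and similar in epidermis, Gohir.A01G214800 had 31.6 and 26.1 FPKM in Gb3-79 epidermis and 136 and 105 FPKM in fiber. GhTM-1 had 30.9 and 34.2 FPKM in epidermis and 36.3 and 40.6 FPKM in fiber. The other 7 groups of the series had means of 19.7 to 38.5 FPKM, and the mean of Gb3-79 fiber was 120.9 FPKM.

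The 12 genes higher in fiber and lower in epidermis included Gohir.A07G077300. It had 5.17 and 16.2 FPKM in Gb3-79 epidermis and 55.2 and 48.8 FPKM in fiber, beside 22.9 and 17.8 FPKM in GhTM-1 epidermis and 25.3 and 13 FPKM in its fiber. The replicates of Gb3-79 epidermis lay more than 2-fold apart, yet both were below both GhTM-1 epidermal libraries.

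The 16 genes similar in fiber had a median of 8.32 FPKM in Gb3-79 fiber and 7.23 FPKM in GhTM-1 fiber, while epidermis had 2.88 FPKM in Gb3-79 and 8.09 FPKM in GhTM-1. Gohir.D10G184600 had 313 and 273 FPKM in Gb3-79 fiber and 231 and 212 FPKM in GhTM-1 fiber. In epidermis Gb3-79 had 100.4 and 90.0 FPKM and GhTM-1 had 189 and 203 FPKM. Gohir.D10G184200, which lies 2 orthologs away on the same chromosome, showed the same arrangement at a lower level, with 24.5 and 24.8 FPKM in Gb3-79 fiber, 23.7 and 22.1 FPKM in GhTM-1 fiber, 10.1 and 12.1 FPKM in Gb3-79 epidermis and 21.9 and 20.2 FPKM in GhTM-1 epidermis. The limits define this class by a lower epidermal level in Gb3-79, and smaller fiber differences remained within it. The ratio of Gb3-79 to GhTM-1 ran from 0.683 to 1.45 in fiber, with a median of 1.16, and had a median of 0.432 in epidermis.

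The libraries of 0 DPA add the level of the outermost layer in each line. In the wild types that layer includes the fiber initials, while the epidermis of 2 DPA was cut after the fibers were removed. Stage and cell content cannot be told apart in their change, and only GhMD17 gave epidermis without fibers at both stages. From 0 to 2 DPA the epidermal level of the 52 genes had a median ratio of 0.780 in Gb3-79 (1.01 over the 13140 orthologs), 1.35 in GhTM-1 (0.966) and 1.11 in GhMD17. For GhMD17 the median fitted log2 change was 0.13, against 0.004 over the 13140. The rule read the wild-type epidermis of 2 DPA, and choosing a low Gb3-79 epidermis favours a low ratio in that line. Gb3-79 fiber was 2.61 times Gb3-79 epidermis of 0 DPA at the median (1.01), and both 0 DPA libraries lay under the lowest fiber library for 46 genes and above the highest for 1. Both 0 DPA libraries lay above both epidermal libraries of 2 DPA for 19 genes and below both for 12. The rule chose genes high in Gb3-79 fiber, which favours the count of 46. No share over all orthologs was computed for these counts, so they do not set the 52 genes apart. Against GhMD17 epidermis of 2 DPA, the median ratio was 2.96 for Gb3-79 fiber, 0.954 for Gb3-79 epidermis and 1.41 for GhTM-1 epidermis, where the 13140 orthologs gave 1.11, 1.10 and 0.995.

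The limit of 2 times cut through a continuous range. Just inside it, Gohir.D11G195700 had 4.29 and 3.49 FPKM in Gb3-79 epidermis and 8.63 and 9.58 FPKM in fiber, and Gohir.A01G067700 had 3.69 and 3.88 FPKM in epidermis and 7.81 and 8.05 FPKM in fiber. Just outside it, Gohir.D10G215600 had 7.81 and 7.54 FPKM in epidermis and 15.9 and 15.6 FPKM in fiber, and Gohir.A10G035400 had 2.61 and 1.45 FPKM in epidermis and 5.36 and 5.21 FPKM in fiber. The genes on either side of the limit had nearly the same ratio.

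The epidermis of 0 DPA and the mutant were not read by the rule, and 4 comparisons of them were tested with limma. Each gene's spread in that fit drew on all 16 libraries, including the wild-type libraries of 2 DPA that the rule read. The SE and P are thus not independent of the selection. A fit on only the libraries compared leaves those wild-type libraries out. It called 5 of the genes higher and 4 lower for Gb3-79 against GhMD17, and 3 and 0 for GhTM-1 against GhMD17. For Gb3-79 against GhTM-1 the counts were 2 and 5, and for GhMD17 between stages 0 and 1. A gene was called when its unadjusted P was under 0.01, the higher of the group means was above 5 FPKM and the means differed by more than 1.5-fold, and p adjusted over all orthologs tested (Benjamini-Hochberg) is given for named genes. The first question was whether the genes were already higher in the layer that holds the fiber initials of Gb3-79 than in the fiberless mutant. Of the 52 genes 6 were called higher and 6 lower, where 6.3% and 5.37% of all orthologs tested and 16% and 6.91% of the 13140 orthologs were called. The libraries did not overlap for 20 genes that were higher and 13 that were lower, beside 23.3% and 27.5% of all orthologs and 39.4% and 25.4% of the 13140. The median log2 change was 0.17, against -0.01 over all orthologs and 0.11 over the 13140. In each direction 11.5% of the 52 were called, above the share of all orthologs and, for higher genes, below that of the 13140, and this difference was not tested. Without the second GhMD17 library of 0 DPA the count of higher genes was 3.

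Single genes did differ. Gohir.A03G162600 had 89.6 and 81.0 FPKM in Gb3-79 epidermis of 0 DPA and 0.853 and 0.361 FPKM in GhMD17, a log2 change of 5.76 (SE 0.35, adjusted p = 2.33e-06, limma). Its 0 DPA level in Gb3-79 was as high as in fiber of 2 DPA, 59.1 and 119 FPKM, while the epidermis beneath the fibers had 21.5 and 27.1 FPKM. In GhTM-1 all 6 libraries lay between 3.08 and 6.58 FPKM. This gene was thus high in Gb3-79 in the layer that holds the initials at 0 DPA and in the fibers of 2 DPA, and lower in the epidermis beneath the fibers.

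Gohir.A07G077300 had 22.5 and 60.4 FPKM in Gb3-79 at 0 DPA and 5.92 and 4.23 FPKM in GhMD17 (log2 change 2.66, SE 0.70, adjusted p = 0.0275, limma). Its replicates in Gb3-79 were far apart, and the call was lost without the second Gb3-79 library (log2 change 1.96, adjusted p = 0.191) or without either GhMD17 library (2.86, adjusted p = 0.0796, and 2.45, adjusted p = 0.152). In the opposite direction, Gohir.D02G086666 had 4.04 and 1.70 FPKM in Gb3-79 and 27.0 and 34.8 FPKM in the mutant (log2 change -3.10, SE 0.49, adjusted p = 0.00165, limma). The abundant Gohir.A02G081503, whose 0 DPA values are given above, was lower in Gb3-79 than in the mutant by a log2 change of -1.71 (SE 0.22, adjusted p = 0.000414, limma). Both of these were lower in Gb3-79 than in mutant surface cells at anthesis, and at 2 DPA both stood higher in the fiber of Gb3-79 than in its epidermis.

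**Figure D4:**
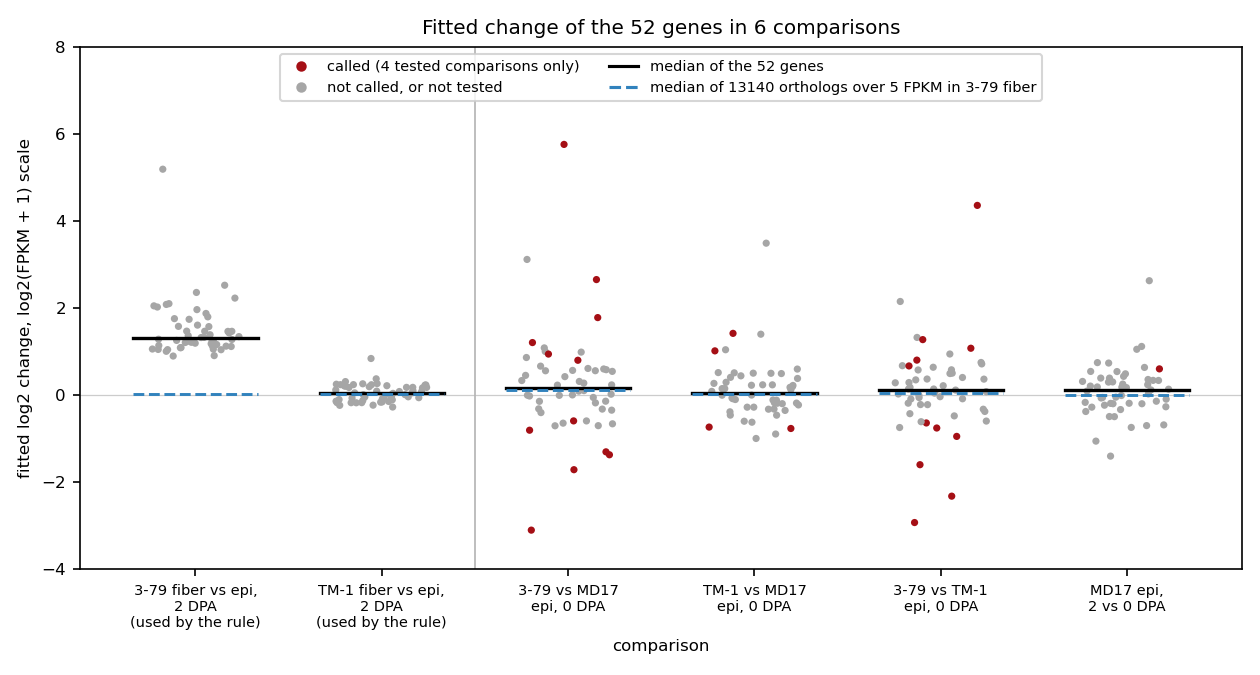
Fitted log2 change on the log2(FPKM + 1) scale of each of the 52 genes in 6 comparisons; points are genes, red where called in the 4 tested comparisons, black bars are medians of the 52 genes and dashed bars medians of the 13140 orthologs above 5 FPKM in Gb3-79 fiber. Left of the vertical line are the comparisons that the rule used; in the tested ones the medians of the 52 genes lie at 0.17, 0.05, 0.13 and 0.13.

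The same question for GhTM-1 shares the GhMD17 libraries, and its values stand beside those above without being independent of them. At 0 DPA 2 of the 52 genes were called higher in GhTM-1 than in GhMD17 and 2 lower, where 3.7% and 2.68% of all orthologs and 10.4% and 4.44% of the 13140 were called. The median log2 change was 0.05. Gohir.D01G019000 had 15.7 and 14.8 FPKM in GhTM-1 and 6.19 and 4.14 FPKM in GhMD17 (log2 change 1.42, SE 0.29, adjusted p = 0.0173, limma), and its Gb3-79 libraries of 0 DPA had 13.7 and 8.32 FPKM. Gohir.D02G139600 had 38.2 and 46.5 FPKM in GhTM-1 and 20.6 and 20.1 FPKM in GhMD17 (log2 change 1.02, SE 0.20, adjusted p = 0.0174, limma). Both stood above the mutant in GhTM-1 from 0 DPA on. GhTM-1 kept 9.83 FPKM or more of the first and 36.4 FPKM or more of the second in each cell type at 2 DPA. In a fit on only the libraries compared, adjusted p was 0.0686 and 0.0620 (limma), while both genes stayed called by unadjusted P. Leaving out 1 library gave log2 changes of 1.18 to 1.66 for the first and 0.880 to 1.16 for the second.

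The calls of the genes lower in GhTM-1 were lost in more of the alternative fits. Gohir.A11G199633 had 6.56 and 10.5 FPKM in GhTM-1 and 14.5 FPKM in each GhMD17 library (log2 change -0.73, SE 0.18, adjusted p = 0.0486, limma). Gohir.A02G081503 differed by -0.77 (SE 0.22, adjusted p = 0.0786, limma) and met the call limits by its unadjusted P alone. Without the first GhTM-1 library of 0 DPA neither call remained (adjusted p = 0.227 and 0.306). The call of Gohir.A11G199633 was also lost without either GhMD17 library (adjusted p = 0.149 and 0.166), and that of Gohir.A02G081503 without the second (0.336). In a fit on only the libraries compared both were lost (0.239 and 0.402). Without the first GhMD17 library the count of higher genes was 4 and that of lower genes 1.

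Between the wild types at 0 DPA, 5 of the 52 genes were called higher in Gb3-79 and 6 lower, where 4.72% and 3.49% of all orthologs and 10.7% and 5.8% of the 13140 were called. The median log2 change was 0.13, against 0 over all orthologs and 0.05 over the 13140. Some genes differed between the lines at 0 DPA in the direction of their class of 2 DPA. Of the 9 genes higher in both cell types at 2 DPA, 4 were already higher in Gb3-79 at 0 DPA. Both genes lower in both cell types were lower at 0 DPA, and their Gb3-79 values come from *G. barbadense* genes on D10 and A03. Line and genome reference differed in the same way at both stages, and no share over other orthologs was computed. The remaining calls were 1 gene higher and 2 lower among the 11 with a similar epidermis, and 2 lower among the 16 that were similar in fiber.

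Gohir.A03G162600 again had the largest change, with 3.08 and 3.31 FPKM in GhTM-1 at 0 DPA (log2 change 4.36, SE 0.35, adjusted p = 3.17e-05, limma). Gohir.D06G043900 had 5.56 and 6.58 FPKM in Gb3-79 and 1.35 and 2.60 FPKM in GhTM-1 (log2 change 1.28, SE 0.26, adjusted p = 0.0110, limma). By 2 DPA the epidermis of both lines had similar values of this gene, 3.55 and 4.36 FPKM in Gb3-79 and 5.26 and 5.35 FPKM in GhTM-1, while fiber had 10.8 and 9.80 FPKM in Gb3-79 and 5.11 and 7.52 FPKM in GhTM-1. The call of Gohir.D06G043900 was lost in a fit on only the libraries compared (adjusted p = 0.120) and lies under a minimum of 10 FPKM. Without the first GhTM-1 library of 0 DPA the count of genes called higher was 3.

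Among the genes called lower, Gohir.D02G086666 had 27.0 and 27.2 FPKM in GhTM-1 at 0 DPA against 4.04 and 1.70 FPKM in Gb3-79 (log2 change -2.93, SE 0.49, adjusted p = 0.00367, limma). At 2 DPA it had 10.9 and 10.7 FPKM in Gb3-79 fiber and 1.55 and 2.58 FPKM in its epidermis, with 13.4 and 20.4 FPKM in GhTM-1 fiber and 6.70 and 25.0 FPKM in GhTM-1 epidermis. Gohir.D02G139600 had 8.97 and 6.50 FPKM in Gb3-79 at 0 DPA (log2 change -2.32, SE 0.20, adjusted p = 5.62e-05, limma). At 2 DPA Gb3-79 had 4.37 and 6.94 FPKM of it in epidermis and 18.0 and 15.3 FPKM in fiber, below all 4 GhTM-1 libraries of 36.4 to 44.3 FPKM. For both genes the higher level in Gb3-79 fiber was still below that of GhTM-1 fiber. Both were paired with a *G. barbadense* gene on another chromosome, as described below.

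Few of the genes were called between stages in the mutant. From 0 to 2 DPA 1 of the 52 genes was called higher in GhMD17 epidermis and 0 lower, where limma called 1.16% and 0.633% of all orthologs and 2.09% and 0.982% of the 13140. At an unadjusted P under 0.05 alone 8 genes were higher and 1 lower, where 5.2% and 3.64% of all orthologs and 6.89% and 3.9% of the 13140 met that limit. The called gene was Gohir.A05G403200, from 130.2 and 138 FPKM at 0 DPA to 215 and 195 FPKM at 2 DPA (log2 change 0.60, SE 0.19, adjusted p = 0.296, limma). Its change did not pass the adjustment, and the call was lost without any 1 of the 4 libraries, at adjusted p of 0.406 to 0.592. Without the first GhMD17 library of 2 DPA 1 gene was called lower.

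The 433 orthologs with the same rise in Gb3-79 fiber and a GhTM-1 ratio above the window were called in other shares in these comparisons, given here as a description. Gb3-79 was called higher than GhMD17 at 0 DPA for 36.7% of them and lower for 3.70%, beside 11.5% and 11.5% of the 52. For GhTM-1 against GhMD17 the shares were 24.9% and 1.85%, beside 3.85% and 3.85%. For Gb3-79 against GhTM-1 they were 16.9% and 7.85%, beside 9.62% and 11.5%, and for the mutant from 0 to 2 DPA 9.70% and 1.39%, beside 1.92% and 0 of the 52. The median log2 change at 0 DPA was 0.84 for Gb3-79 and 0.48 for GhTM-1 against the mutant. Among the 433 the calls against the mutant lay mostly upward, whereas among the 52 they were equal in number in both directions.

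The *G. hirsutum* gene IDs place 35 of the 52 genes (67.3%) on the A subgenome and 17 (32.7%) on the D subgenome. Of the 13140 orthologs above the same fiber minimum 49.6% carried A, of the 546 with the same fold in Gb3-79 52.01%, and of the 433 orthologs with a GhTM-1 ratio above the window 50.1%. The A genes were spread over all 13 chromosomes, from 1 gene each on A04, A12 and A13 to 6 on A05. The D genes lay on 11 chromosomes, with 4 on D02 and none on D07 or D08. By class, 7 of the 9 genes higher in both cell types lay on A, 9 of the 11 with a similar epidermis, 9 of the 12 with a lower epidermis and 9 of the 16 similar in fiber. Besides the pair on D10, 2 pairs with 5 orthologs between them lay on A05 and A09, Gohir.A05G175300 with Gohir.A05G176600 and Gohir.A09G013700 with Gohir.A09G015000.

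Each of the 52 genes was found in the *G. barbadense* table by its 6 identical Gb3-79 values, and each matched a single row. The matched gene lay on the chromosome of the same name for 49 and elsewhere for 3. Gohir.D01G019000 was paired with a gene on A01, Gohir.D02G086666 with a gene on D10 and Gohir.D02G139600 with a gene on A03. The values compared between the lines thus belong to loci of different chromosomes, for Gohir.D01G019000 and Gohir.D02G139600 also of different subgenomes. Pairs on chromosomes of different names made up 5.77% of the 52 and 5.08% of the 13140. All 3 were called against GhMD17 at 0 DPA, and both D02 genes account for the class that was lower in both cell types of Gb3-79. The part of the pairing in these differences was not tested.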

How the data were processed

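RNA-seq was made from laser-captured ovule cells in 8 groups of 2 biological replicates. Per the submitters' processing notes the tools were TopHat2 2.1.1, SAMtools 1.5 and Cufflinks 2.2.1. According to the methods, reads were mapped to the genome of each species and uniquely mapped reads were kept. The FPKM values were computed by the authors and were used as deposited. No counts were used, so counting error per gene is unknown.

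Orthologs listed at 0 in all libraries were dropped. The limma package (3.58.1, R 4.3.3) was run on log2(FPKM + 1) with 8 group means, all 16 libraries and eBayes with a trend. Contrasts were two-sided, and Benjamini-Hochberg adjustment ran over 42627 orthologs. Fold changes on this scale understate the change of low genes. The study names ANOVA for its P, without its groups or scale, so P here is from another test. Tables were written with Python 3.11.15 and pandas 2.3.3. The fit was tested on simulated data. The rule, the members and the ARF and MYB lists were chosen with earlier results of these data known.

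Named genes were the 2 with the largest Gb3-79 ratio, the 2 highest in Gb3-79 fiber, the 2 highest in each class of at least 5 genes, the 2 largest called changes in each direction of each tested comparison with no overlap of libraries, and the 2 nearest the limit on each side. Pairs of neighbouring genes and the genes paired across chromosomes were added after their values were seen. Alternatives changed the pseudocount, the FPKM minimum, the P, the libraries fitted, a replicate block, the scaling of libraries and single replicates. For the ARF list, calls higher and lower were 0 and 8 in GhTM-1 against GhMD17 (0 and 13 at an unadjusted P under 0.05), 0 and 1 in Gb3-79 against GhTM-1 (2 and 2) and 0 and 1 in GhMD17 between stages (1 and 2). For the MYB list they were 5 and 5 (5 and 6), 1 and 0 (1 and 7), and 2 and 0 (3 and 1). Over all orthologs tested the shares called were 3.7% and 2.68%, 4.72% and 3.49%, and 1.16% and 0.633%. At an unadjusted P under 0.05 they were 8.06% and 8.79%, 12.1% and 10.4%, and 5.2% and 3.64%.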

Additional observations from a re-analysis of the deposited data

How the results depend on the processing

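No log2 change of a named gene changed sign under any alternative run, while the balance of higher and lower calls did turn in places, as given here. The fold limit set the size of the gene set: 225 genes met the rule at 1.5 times and 8 at 3 times, and a GhTM-1 window of 0.9 to 1/0.9 or of 1/1.5 to 1.5 left 26 or 128. Rescaling the libraries, by factors of 0.933 to 1.02, gave 66 genes, 51 of them shared. Leaving out 1 library gave 59 to 232 genes, with 134 and 131 without the first or second Gb3-79 fiber library and 232 and 126 without the first or second epidermal one. Without a GhTM-1 library 35 to 38 of the 52 genes remained. Without a Gb3-79 library, which can only loosen the rule, all 52 remained. With a class limit of 2, 5 genes were higher in both cell types, 4 higher in fiber and lower in epidermis, 15 similar in both and 1 lower in both, and after rescaling 1 was similar in both.

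For Gb3-79 against GhMD17, leaving out 1 library gave 3 to 7 genes called higher and 4 to 8 lower. For GhTM-1 against GhMD17, adjusted p under 0.05 left 1 gene lower, a fit on only the libraries compared left 0, and leaving out 1 library gave 2 to 4 higher and 0 to 2 lower. For Gb3-79 against GhTM-1, 8 genes were called higher and 6 lower with no minimum FPKM, 3 higher with a minimum of 10 FPKM, 2 with only the libraries compared and 3 to 6 without 1 library (4 to 6 lower), of which 6 higher and 5 lower without the first Gb3-79 library. For GhMD17 between stages, 3 genes were called higher with no minimum, 0 by adjusted p, 0 with only the libraries compared (and 1 lower), and 0 to 1 higher and 0 to 1 lower without 1 library. The causes were not tested, beyond the fewer genes or libraries of those settings.

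Replicate differences of same-numbered libraries correlated weakly between groups (r of -0.0969 to 0.136 over 28 pairs of groups). A correlation over all expressed orthologs, many of them low, cannot exclude that the numbers pair the samples. With a replicate block, 5 genes were called higher and 5 lower for Gb3-79 against GhMD17, 2 and 3 for GhTM-1 against GhMD17, 4 and 6 for Gb3-79 against GhTM-1, and 0 and 0 for GhMD17 between stages. A left-out library leaves a lone sample that is assumed to vary like the other groups. With 2 libraries per group and unknown depth, small changes could not be resolved.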
